A study of Mus musculus with 16 samples.

Results

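Cyclic nucleotide phosphodiesterases, the enzymes that break down cAMP and cGMP, were examined as a set of 10 genes (Pde4a, Pde4b, Pde4d, Pde7a, Pde8a, Pde1c, Pde2a, Pde3a, Pde3b and Pde5a), chosen by gene symbol from the 35682 genes of the deposited count table. Each symbol matched exactly 1 row. The set was chosen with earlier results of these data known. The 16 adult mice whose ventricular myocytes gave the RNA were 8 animals of B3AR-Tg and 8 wild-type littermates (WT). B3AR-Tg is a transgenic line whose name stands for a beta-3 adrenergic receptor transgene. Every animal of both genotypes had undergone transverse aortic constriction (TAC), a narrowing of the aorta that loads the left ventricle, and was studied 9 weeks later, so no unloaded heart is part of the comparison. Myocytes were released by Langendorff perfusion and kept on plates for 1 hour before RNA was taken. The labels do not name the promoter or the species of the transgene, the number of founder lines, or the animals' sex or exact age. Nor do they say whether cultures or library batches were shared.

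Phosphodiesterases end cyclic nucleotide signals, and in heart muscle they also confine them to small regions of the cell, so that cAMP made at a beta-adrenergic receptor does not reach every target. The families differ in substrate. PDE4, PDE7 and PDE8 enzymes hydrolyse cAMP, PDE5 hydrolyses cGMP, and PDE1, PDE2 and PDE3 accept both. PDE3 is inhibited by cGMP and PDE2 is stimulated by it, which links the cGMP pathway, where nitric oxide acts, to cAMP levels. Protein kinase A, the main cAMP effector, phosphorylates and activates long PDE4 forms, and cAMP also raises transcription of some PDE4 promoters through CREB-type factors.

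Libraries held 5985335 to 14365864 counts. Levels are given as CPM, the count scaled to the library's size with TMM factors, on which a value of 3 counts, taken as the limit of detection, was 0.201 to 0.487 CPM. All 12 cardiac myocyte markers were detected, with a summed level of 82663 to 109461 CPM among WT and 92824 to 128564 among B3AR-Tg animals. Of the 12, 9 had a positive log2 fold change of B3AR-Tg over WT and 3 a negative one. At an edgeR adjusted p under 0.05, 1 passed as higher in B3AR-Tg and 0 as lower. Marker lists of other cells summed to far lower levels. Of their 23 tested genes, 21 had a negative log2 fold change and 2 a positive one, with a median of −0.73. At the same threshold 5 passed as lower and 1 as higher in B3AR-Tg (2.88% and 2.03% of all tested genes). All 6 tested fibroblast markers had a negative log2 fold change and 3 passed. Their sum was 33.1 to 93.0 CPM in WT against 10.01 to 44.6 CPM in B3AR-Tg. All 8 endothelial markers had a negative log2 fold change and 2 passed, with sums of 87.3 to 136.9 CPM and 43.5 to 163.9 CPM. Leukocyte markers summed to 3.08 to 12.6 CPM and 0.971 to 5.76 CPM, and 0 of 2 tested passed. Of the mural cell markers, Abcc9, a potassium channel subunit gene also expressed by cardiac myocytes, rose from 334.5 CPM to 455 CPM (log2 fold change 0.44, edgeR adjusted p = 0.0132). The other mural markers summed to 83.1 to 144.4 CPM and 43.6 to 138.4 CPM, and 0 of 6 tested passed. No marker of these lists was at 0 in all animals. In bulk RNA, fewer cells of a type and less RNA per cell cannot be told apart, and the part of these cells in the results below was not tested beyond the values given.

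Transcripts of 3 phosphodiesterases, Pde4b, Pde4a and Pde3a, were more abundant in the ventricular myocyte preparations of B3AR-Tg animals than in those of WT animals. Pde4b moved most, to about 1.98 times the WT level, and Pde4a and Pde3a rose to 1.52 and 1.49 times. Of the 10 genes, 8 had enough counts to be tested, and 3 of the 8 rose at an adjusted p under 0.05 (edgeR quasi-likelihood test, Benjamini-Hochberg over all 10945 tested genes) while 0 fell. Among all tested genes 4.91% passed, 2.03% as higher and 2.88% as lower in B3AR-Tg. Because the set was chosen with earlier results known, these shares are given as a description and their difference was not tested. Without adjustment 5 of the 8 had a p under 0.05 (19.3% of all tested genes), 4 of them higher (8.71% of all tested genes). In no member did all B3AR-Tg animals lie above all WT animals, or all below them, an arrangement found in 0.201% and 0.247% of all tested genes. DESeq2 called 5 members (6.41% of all genes it tested), voom 4 (6.45%), library-size scaling 4 (4.67%), the fit with a replicate block 1 (2.1%) and the fit with a covariate for markers of other cells 1 (0.265%). The median log2 fold change of the 8 was 0.30, and that of all tested genes was 0.01. The 3 higher genes include a cAMP-selective pair and a gene whose enzyme accepts both nucleotides. The genes that were not tested, Pde3b and Pde5a, held at most 15 counts in any animal.

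**Figure D1:**
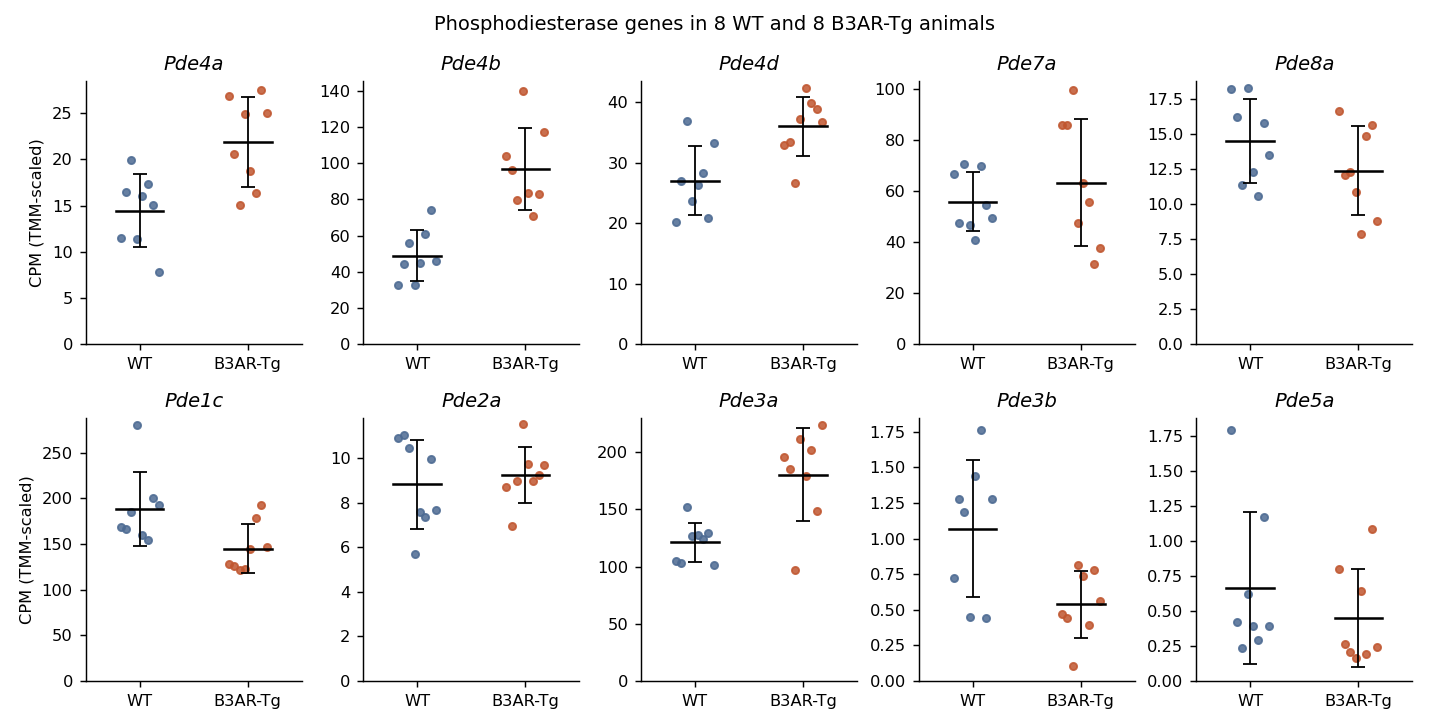
Level of each of the 10 genes in every animal, in CPM scaled with TMM factors on linear axes from 0, with points for animals, a horizontal bar for the mean and whiskers for 1 SD over 8 animals. Pde4b shows the clearest shift, with 7 of 8 B3AR-Tg animals above the highest WT animal, while Pde2a, Pde7a and Pde8a overlap broadly.

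Pde4b encodes a cAMP-specific enzyme that shapes beta-adrenergic control of the L-type calcium channel in mouse heart. WT animals lay between 32.6 and 74.1 CPM with a median of 45.5 CPM, and B3AR-Tg animals between 70.8 and 139.9 CPM with a median of 89.9 CPM. The groups met only at their edges, since WT replicate 7 (74.1 CPM) lay above B3AR-Tg replicate 6 (70.8 CPM) and no other animals crossed. The log2 fold change was 0.99 (SE 0.16, edgeR adjusted p = 0.00329), and Pde4b ranked 17 of all tested genes by p-value. Pde4b passed under all 25 alternative settings, with log2 fold changes from 0.89 to 1.16.

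Pde4a, a related cAMP-specific gene, was less abundant by count. WT animals ranged from 7.86 to 19.9 CPM (median 15.6) and B3AR-Tg animals from 15.0 to 27.5 CPM (median 22.7). Of the B3AR-Tg animals, 5 were above the highest WT animal, WT replicate 3, and 7 were above the WT median. The log2 fold change was 0.60 (SE 0.17, edgeR adjusted p = 0.0409). This call was close to the threshold. It was lost when any of 11 animals was left out (adjusted p up to 0.0904) and stayed when WT replicates 3, 5 or 6 or B3AR-Tg replicates 3 or 6 were left out.

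Pde4d, whose enzyme is found with ryanodine receptors and with beta-arrestin at beta receptors, did not pass. WT animals ranged from 20.3 to 36.9 CPM (median 26.6) and B3AR-Tg animals from 26.6 to 42.4 CPM (median 36.9). All 8 B3AR-Tg animals were above the WT median, 4 of them above the highest WT animal, and the ranges overlapped. The log2 fold change was 0.41 (SE 0.12, edgeR adjusted p = 0.0524). Pde4d passed with DESeq2 (0.0261), with limma voom and sample weights (0.0119), with library-size scaling (0.0365), without the low-count filter (0.0492) and without WT replicate 3 (0.0152), WT replicate 8 (0.0412) or B3AR-Tg replicate 3 (0.0245).

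The counts are sums over all transcripts of a gene, so long and short PDE4 forms, which start at different promoters, were not separated. The RefSeq table on GRCm38.p6, an earlier build than the GRCm39 named in the submitters' processing notes, lists start windows of 300 bases (250 before and 50 after a start) for 7 of the 10 genes. It holds 4 for Pde4b, 3 for Pde4a and 1 for Pde4d. The windows were searched on both strands for TGACG, the core of the cAMP response element bound by CREB-type factors, and for the full palindrome TGACGTCA, which contains that core on each strand. The core was found in 1 of 4 Pde4b windows and 1 of 3 Pde4a windows, and not in the Pde4d window. Among the 18 windows of the 10 genes it was in 4 (22.2%), and among all 32851 windows of the table in 20.8%. The palindrome was in 0 of the 18 and in 1.79% of all. The members' share was thus near that of the whole table, and the counts do not say which start was used. A window for each PDE4 gene is shown, for Pde4b and Pde4a the window that holds the core, with the core in capitals (read on the opposite strand, CGTCA). It begins 34 bases before the start in Pde4b and 50 bases before it in Pde4a.
Pde4b, chr4:102421305-102421604, plus strand: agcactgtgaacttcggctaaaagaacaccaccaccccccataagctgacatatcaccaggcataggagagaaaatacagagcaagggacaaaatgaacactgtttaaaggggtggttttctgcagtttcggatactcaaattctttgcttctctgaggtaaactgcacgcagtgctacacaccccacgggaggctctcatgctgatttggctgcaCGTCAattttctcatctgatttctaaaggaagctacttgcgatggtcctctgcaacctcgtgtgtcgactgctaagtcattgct
Pde4a, chr9:21183851-21184150, plus strand: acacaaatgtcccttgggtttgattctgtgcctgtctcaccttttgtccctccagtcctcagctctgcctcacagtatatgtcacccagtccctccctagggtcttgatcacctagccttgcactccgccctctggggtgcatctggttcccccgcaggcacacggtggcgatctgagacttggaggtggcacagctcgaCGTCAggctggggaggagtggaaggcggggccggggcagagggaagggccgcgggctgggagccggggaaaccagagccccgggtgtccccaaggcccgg
Pde4d, chr13:108653927-108654226, plus strand: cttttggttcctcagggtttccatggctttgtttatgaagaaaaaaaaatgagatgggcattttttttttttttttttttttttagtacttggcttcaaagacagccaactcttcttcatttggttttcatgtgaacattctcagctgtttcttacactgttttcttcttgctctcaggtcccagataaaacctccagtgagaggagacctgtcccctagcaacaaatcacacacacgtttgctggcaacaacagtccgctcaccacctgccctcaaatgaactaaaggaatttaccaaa

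The log2 ratio between related genes was compared within each animal by exact two-sided permutation over all 12870 splits into 8 and 8, with p-values adjusted over the 4 ratios examined. These ratios were chosen with earlier results of these data known, from the same animals, so they restate the differences in fold change above as a value per animal and are no separate evidence of them. The Pde4b to Pde4d ratio of CPM had a geometric mean of 1.78 in WT and 2.65 in B3AR-Tg. On the log2 scale it was 0.83 ± 0.45 (SD, n = 8) and 1.404 ± 0.39 (SD, n = 8), a difference of 0.57 with a standard error of 0.21 (exact permutation adjusted p = 0.0385). All 8 B3AR-Tg animals were above the WT median, but only 1 was above WT replicate 7, whose ratio of 1.82 stood apart from the 0.47 to 1.10 of the other WT animals. This difference held without WT replicates 6, 7 or 8 or B3AR-Tg replicates 5, 6 or 7 and missed the threshold without any of the other 10 animals (exact permutation adjusted p up to 0.0733). The Pde4b to Pde4a ratio differed by 0.39 with a standard error of 0.18 (exact permutation adjusted p = 0.0707), and it passed without WT replicate 7 (0.0329), WT replicate 8 (0.0193) or B3AR-Tg replicate 7 (0.0313). The Pde4d to Pde4a ratio differed by −0.19 with a standard error of 0.21 (exact permutation adjusted p = 0.433).

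**Figure D2:**
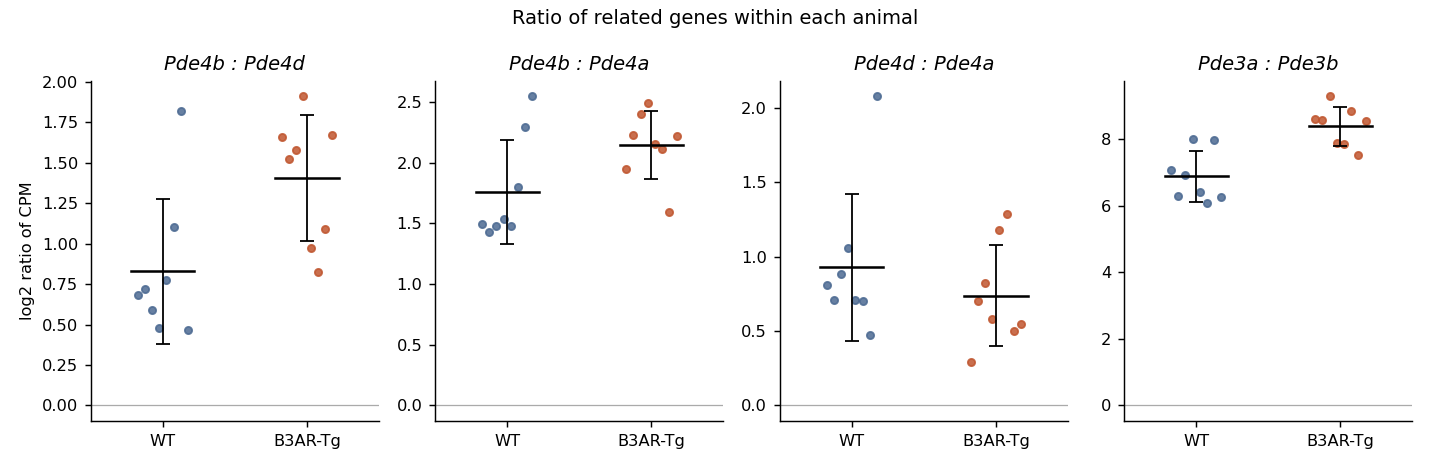
Log2 ratio of CPM of 2 related genes within each animal, with points for animals, a horizontal bar for the mean, whiskers for 1 SD over 8 animals and a grey line at equal CPM. The Pde4b to Pde4d ratio is 0.83 in WT and 1.404 in B3AR-Tg on average, and the Pde3a to Pde3b ratio 6.88 and 8.38.

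The remaining cAMP-selective genes did not pass. Pde7a, a high-affinity cAMP enzyme, ranged from 41.1 to 70.7 CPM in WT (median 52.1) and from 31.5 to 99.8 CPM in B3AR-Tg (median 59.5). The B3AR-Tg animals spread on both sides of the WT range, with 3 above all WT animals and 2 below all of them. Its log2 fold change was 0.19 (SE 0.20, edgeR adjusted p = 0.655), and the sign turned in the fit with a covariate for other-cell markers (−0.36) and with voom (−0.01), neither past the threshold. Pde8a, another high-affinity cAMP enzyme, ranged from 10.6 to 18.3 CPM in WT (median 14.7) and from 7.90 to 16.7 CPM in B3AR-Tg (median 12.2). Its log2 fold change was −0.23 (SE 0.16, edgeR adjusted p = 0.451).

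Pde3a encodes the main cardiac PDE3, which acts near the calcium pump of the sarcoplasmic reticulum and is the target of inotropic drugs such as milrinone. WT animals ranged from 101 to 152 CPM (median 125) and B3AR-Tg animals from 97.1 to 223.7 CPM (median 190.4). Of the B3AR-Tg animals 6 were above all WT animals, B3AR-Tg replicate 7 (149 CPM) was inside the WT range, and B3AR-Tg replicate 3 (97.1 CPM) was below all of it. The log2 fold change was 0.57 (SE 0.13, edgeR adjusted p = 0.0169), and it was 0.67 without B3AR-Tg replicate 3 (adjusted p = 0.00136). The call held when each animal was left out in turn. It did not hold with the other-cell covariate, where the log2 fold change was 0.62 (adjusted p = 0.133).

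Pde3b, the PDE3 gene best known from fat cells and insulin action, was near the limit of detection. WT animals held 3 to 15 counts and B3AR-Tg animals 1 to 10. In CPM the WT range was 0.439 to 1.77 (median 1.23) and the B3AR-Tg range 0.104 to 0.812 (median 0.515), and all 8 B3AR-Tg animals were below the WT median although the ranges overlapped. The gene was removed by the low-count filter. Without the filter its log2 fold change was −0.96 (SE 0.41, edgeR adjusted p = 0.241), and DESeq2 gave −0.998 (adjusted p = 0.128). The log2 ratio of Pde3a to Pde3b was 6.88 ± 0.77 (SD, n = 8) in WT and 8.38 ± 0.59 (SD, n = 8) in B3AR-Tg, a difference of 1.51 with a standard error of 0.34 (exact permutation adjusted p = 0.00622), and 5 B3AR-Tg animals were above all WT animals. The ratio rests on few Pde3b counts.

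Pde1c, a calmodulin-activated enzyme of both nucleotides, was the most counted of the 10 genes in WT. WT animals ranged from 155 to 280.1 CPM (median 177) and B3AR-Tg animals from 122 to 192 CPM (median 136). Of the B3AR-Tg animals 6 were below all WT animals, and replicates 6 (178 CPM) and 7 (192 CPM) were above the WT median. The log2 fold change was −0.38 with a standard error of 0.12 and did not pass (edgeR adjusted p = 0.0815). It passed with DESeq2 (0.0488) and without B3AR-Tg replicate 7 (0.0327), and without WT replicate 4, the highest animal, it was −0.28 (0.180).

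Pde2a, the cGMP-stimulated enzyme, which is also expressed in endothelium, ranged from 5.71 to 11.05 CPM in WT (median 8.81) and from 6.98 to 11.5 CPM in B3AR-Tg (median 9.13). The ranges overlapped almost fully, and the log2 fold change was 0.06 (SE 0.14, edgeR adjusted p = 0.861). Within B3AR-Tg its log2 CPM followed the score of other-cell markers (Pearson r = 0.84, exact permutation p = 0.0161, adjusted p = 0.509 over 32 relations; Spearman rho = 0.55, exact permutation p = 0.171, adjusted p = 0.737), and this fell to −0.02 without the 2 animals farthest from the median score, so it rested on them.

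Pde5a, the cGMP-specific enzyme targeted by sildenafil and abundant in smooth muscle, was at the limit of detection. WT animals held 2 to 15 counts (0.237 to 1.80 CPM) and B3AR-Tg animals 1 to 14 (0.162 to 1.09 CPM). The ranges overlapped, and a difference was not detectable at this depth (edgeR without the filter, log2 fold change −0.46, SE 0.51, adjusted p = 0.640).

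**Figure D3:**
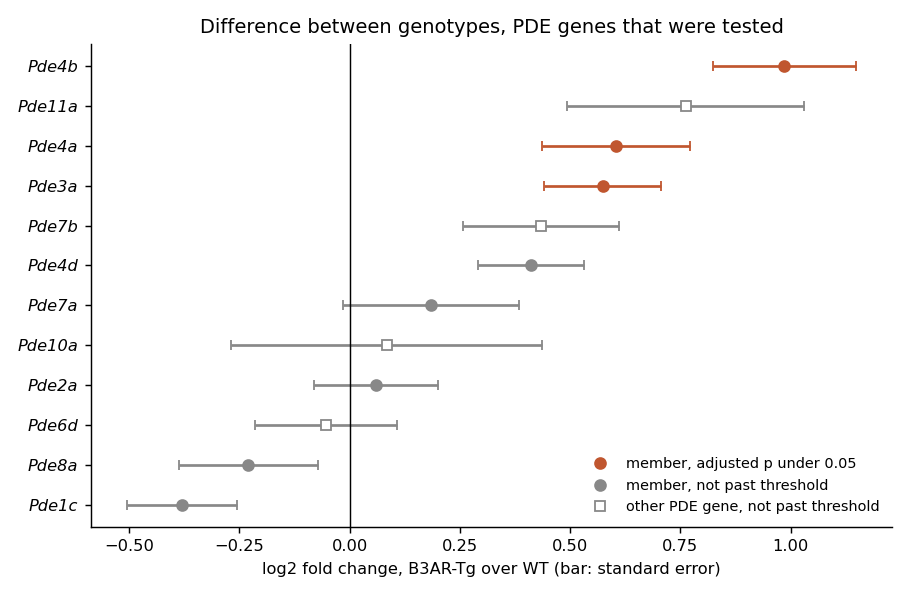
Log2 fold change of B3AR-Tg over WT for the 12 tested genes named as phosphodiesterases or their subunits, with bars of 1 standard error. Filled circles are genes of the set of 10 and open squares other genes so named. Orange marks the 3 past an adjusted p of 0.05, Pde4b at 0.99, Pde4a at 0.60 and Pde3a at 0.57.

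To set the genes beside each other, CPM was divided by the length of the longest protein-coding transcript in GENCODE M21, which held all 10 gene IDs. On this per-length scale the WT order was Pde1c (21.5 ± 4.61 CPM per kb, SD, n = 8), Pde4b (11.4 ± 3.26), Pde3a (9.84 ± 1.4004), Pde7a (8.87 ± 1.85), Pde4d (6.43 ± 1.37), Pde8a (3.83 ± 0.794), Pde4a (3.11 ± 0.842), Pde2a (2.09 ± 0.473), Pde3b (0.163 ± 0.0733) and Pde5a (0.0877 ± 0.0715). Within WT animals Pde1c was above Pde4b in 8 of 8, Pde4d above Pde8a in 8 of 8 and Pde2a above Pde3b in 8 of 8. Neighbours were less clearly ordered elsewhere, with Pde4b above Pde3a in 6 of 8 WT animals, Pde3a above Pde7a in 6, Pde8a above Pde4a in 5 and Pde3b above Pde5a in 5. In B3AR-Tg, Pde4b came first at 22.5 ± 5.31 CPM per kb (SD, n = 8), ahead of Pde1c at 16.5 ± 3.06, and Pde1c was above Pde4b in 2 of 8 animals. With the median coding transcript length, Pde1c came first in B3AR-Tg too, at 41.99 ± 7.77 CPM per kb against 39.8 ± 9.40 for Pde4b (SD, n = 8), and was above Pde4b in 4 of 8 animals. It was first in WT on both scales, while Pde3a moved from rank 3 to rank 5 in WT, so the order depends on the transcript length used.

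On the longest-transcript scale the 10 genes together were at 67.3 ± 6.24 CPM per kb in WT (SD, n = 8) and 82.6 ± 6.31 in B3AR-Tg. Pde4a, Pde4b and Pde4d together made 31.0% ± 5.05 of that sum in WT (range 21.9 to 36.0%) and 43.1% ± 4.58 in B3AR-Tg (36.3 to 51.2%). Pde4b alone took 16.8% ± 4.01 in WT and 27.0% ± 4.69 in B3AR-Tg. The share of Pde1c was 31.9% ± 5.70 in WT and 20.1% ± 4.18 in B3AR-Tg. These shares describe RNA of genes chosen with results known and carry no test.

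**Figure D4:**
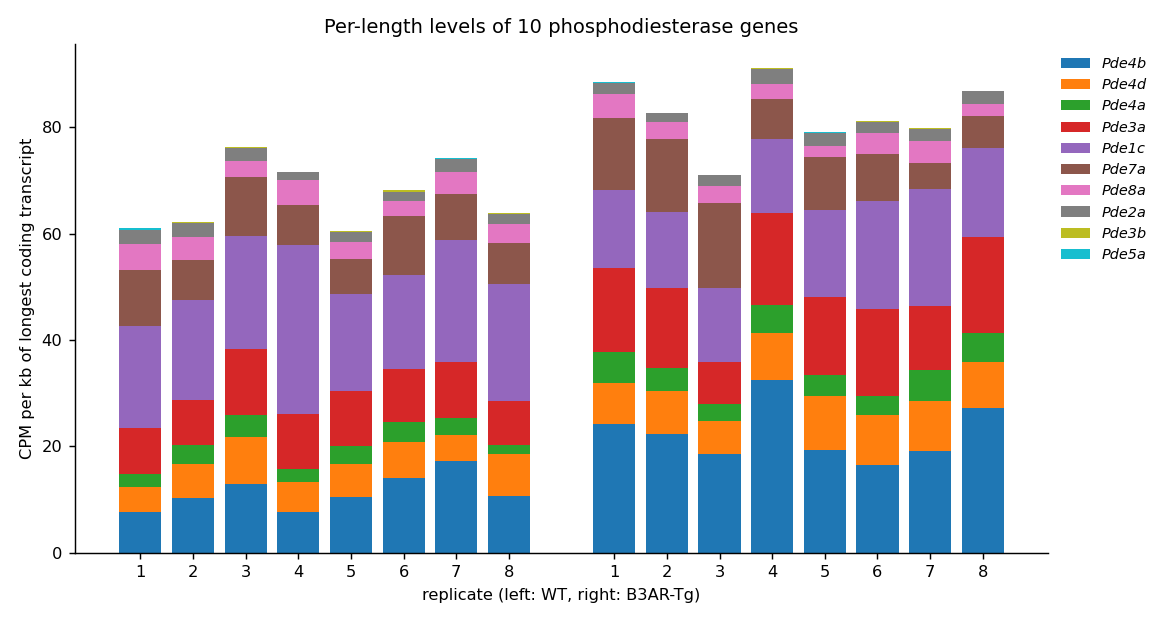
Stacked per-length levels of the 10 genes in each animal, in CPM per kb of the longest coding transcript, with WT replicates 1 to 8 on the left and B3AR-Tg replicates 1 to 8 on the right. The blue Pde4b segment is 7.58 to 17.2 CPM per kb in WT and 16.5 to 32.5 in B3AR-Tg, and the purple Pde1c segment is 17.6 to 31.9 and 13.9 to 21.9.

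The table held 14 other genes named as phosphodiesterases or their subunits. Of these, 4 passed the low-count filter, and 0 of the 4 passed the edgeR test (4.91% of all tested genes). Without adjustment, 2 of the 4 had an edgeR p under 0.05 (19.3% of all tested genes). DESeq2 called 0 (6.41% of all genes it tested). With 4 genes tested, these counts are a description only. Pde11a, an enzyme of both nucleotides, averaged 2.28 ± 0.726 CPM among WT and 3.86 ± 1.65 CPM among B3AR-Tg animals (SD, n = 8), a log2 fold change 0.76 (SE 0.27, edgeR adjusted p = 0.111), and it passed without B3AR-Tg replicate 3 (0.0429). Pde7b, a cAMP enzyme related to Pde7a, was at 13.6 ± 1.83 and 18.3 ± 7.22 CPM (SD, n = 8), a log2 fold change 0.43 (SE 0.18, edgeR adjusted p = 0.173). B3AR-Tg replicate 7 held its highest value, 34.5 CPM. Pde10a and Pde6d had log2 fold changes of 0.08 and −0.05 (edgeR adjusted p = 0.931 and 0.899). The other 10 held at most 14 counts in any animal, and Pde6c held none.

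The rest of the cyclic nucleotide pathway was read from lists of cyclases, effectors, anchoring proteins, cAMP-responsive factors, cGMP genes, calmodulins and exporters. Of 48 tested genes, 0 passed with edgeR and 10 had an unadjusted p under 0.05, near the 19.3% of all tested genes. DESeq2 called 3 of these genes, Adcy9, Adcy1 and Prkar1a, where it called 6.41% of all genes it tested. Voom called 1, Adcy1, where it called 6.45%. The median log2 fold change of the 48 was 0.01, as over all tested genes. The smallest p-values belonged to Prkar1a, the type I regulatory subunit of protein kinase A (log2 fold change −0.61, edgeR adjusted p = 0.0550), and to the adenylyl cyclase genes Adcy1 (−0.88, edgeR adjusted p = 0.0609) and Adcy9 (0.32, edgeR adjusted p = 0.0755). These genes, and those named from the lists below, were chosen after their values were seen.

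Among 13 tested anchoring proteins, Pde4dip (myomegalin, which binds PDE4D) had a log2 fold change of 0.12 (edgeR adjusted p = 0.598) and Akap6, which gathers protein kinase A and PDE4D at the nuclear envelope, −0.01 (0.968). All 7 tested genes of cAMP-responsive transcription had a positive log2 fold change, with a median of 0.13, and 0 passed with edgeR. Among them Crem, which includes the cAMP-induced repressor ICER, was at 0.12 (edgeR adjusted p = 0.801) and Creb1 at 0.08 (0.801). Of 6 tested cGMP genes, 5 had a negative log2 fold change. The exception, Npr2, the receptor cyclase for C-type natriuretic peptide, had the smallest p of the list, with a log2 fold change of 0.33 from 16.8 CPM in WT (edgeR adjusted p = 0.0908), and passed without WT replicate 7 (0.0271). Npr1, the receptor cyclase for atrial natriuretic peptide, was at −0.71 (edgeR adjusted p = 0.228) from 1.84 CPM in WT. The 3 calmodulin genes lay between −0.09 and 0.01. The 3 calls made by edgeR among the lists of this pathway were all phosphodiesterase members. Members and lists were chosen with earlier results of these data known, so where the calls fell is a description only.

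**Figure D5:**
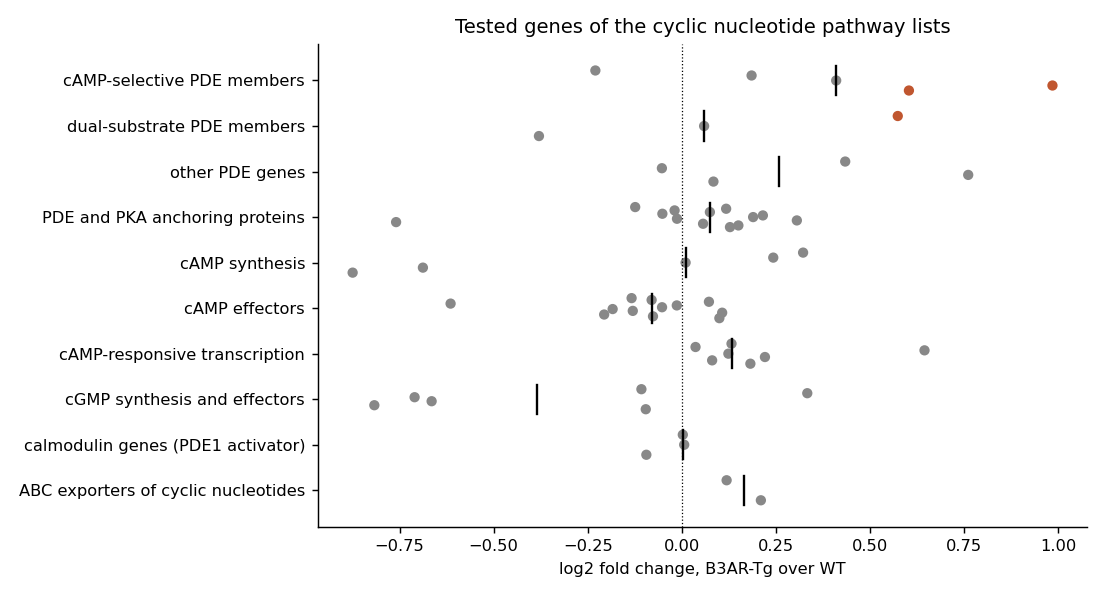
Log2 fold change of B3AR-Tg over WT for tested genes of the phosphodiesterase and pathway lists, with a point for each gene and a black bar for the median of its list. The 3 orange points, past an adjusted p of 0.05, are Pde4b, Pde4a and Pde3a.

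Variation between animals of the same genotype was then described. After each gene's genotype mean was removed, log2 CPM of Pde4b and Pde4a correlated at r = 0.54 over the 16 animals, Pde4a and Pde3a at 0.50, Pde4b and Pde3a at 0.44, and Pde4b and Pde1c at −0.39. The 28 pairs had a median of −0.01 and 14 were above 0. All values share library and scaling, and they are given as a description. The tested genes outside the set with the most similar pattern by this measure were Ippk (r = 0.88), Boc (0.87) and A530016L24Rik (0.84) for Pde4b, Zfp398 (0.89), Scd1 (0.87) and Nrip1 (0.86) for Pde4a, and Mef2a (0.90), Paqr9 (0.89) and Gm42715 (0.87) for Pde3a. Only Scd1 of these 9 differed between genotypes (log2 fold change −1.97, edgeR adjusted p = 0.00771).

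Nppa, a natriuretic peptide gene raised by cardiac load, was lower in B3AR-Tg (log2 fold change −3.99, edgeR adjusted p = 0.00362), and its level was set against each of the 8 tested members within each genotype. The same was done with the score of other-cell markers, which made 32 relations over 8 animals each. None passed after adjustment by Pearson or Spearman correlation (exact permutation over 40320 orders, smallest adjusted p = 0.509 for Pearson). The WT values for Nppa were r = −0.69 and rho = −0.74 for Pde4a and r = −0.68 and rho = −0.69 for Pde3a, with exact permutation p = 0.0523 and 0.0686 for r and 0.0458 and 0.0694 for rho (adjusted p = 0.509 for r and 0.555 for rho in each case). Without the 2 animals farthest from the median Nppa, r was −0.88 and −0.34. Pde8a had the opposite sign in WT, at r = 0.67 and rho = 0.69 (exact permutation p = 0.0795 and 0.0694, adjusted 0.509 and 0.555), and r was 0.89 without the 2 farthest animals. Among B3AR-Tg animals Nppa gave r = −0.14 and rho = −0.10 for Pde4a and r = 0.08 and rho = 0.02 for Pde8a. For Pde3a the B3AR-Tg values were r = −0.60 and rho = −0.62. Without the 2 farthest B3AR-Tg animals, r was −0.66 for Pde4a, 0.37 for Pde8a and −0.94 for Pde3a. The smallest Spearman p of the 32 was that of Pde7a with the other-cell score in B3AR-Tg, at rho = −0.76 and r = −0.66 (exact permutation p = 0.0368 and 0.0680, adjusted 0.555 and 0.509), with r = −0.73 without the 2 farthest animals. Pde4b against Nppa gave r = −0.54 and rho = −0.50 in WT (exact permutation p = 0.169 and 0.216, adjusted 0.632 and 0.737). In B3AR-Tg the values were r = −0.37 and rho = −0.29 (exact permutation p = 0.365 and 0.501, adjusted 0.718 and 0.941). Without the 2 farthest animals these r were −0.70 and −0.33. Pde4b against the other-cell score gave r = 0.16 among WT and 0.40 among B3AR-Tg animals (exact permutation p = 0.719 and 0.332, adjusted 0.950 and 0.718). The rho values were 0.17 and 0.43 (exact permutation p = 0.703 and 0.299, adjusted 0.941 and 0.737). Without the 2 farthest animals these r were −0.24 and 0.45. The score itself was 0.0507 to 0.770 in WT and −1.31 to 0.280 in B3AR-Tg, so it largely moved with genotype. With it as a covariate, Pde4b had a log2 fold change of 1.16 and passed (edgeR adjusted p = 0.0299), while Pde4a (0.80, adjusted p = 0.113) and Pde3a (0.62, adjusted p = 0.133) kept their direction and did not.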

How the data were processed

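The authors deposited whole-number counts per gene with 1 column for each of the 16 animals. Per the submitters' processing notes, Salmon and GRCm39 were used. Salmon gives estimated counts per transcript, and how these deposited expected counts were summed to genes and rounded, the annotation release and the strand setting are not given in the sources used here. Reads of similar genes are shared by estimation, so paralog values carry that uncertainty. Per the labels' protocols, 500 ng of RNA was depleted of ribosomal RNA for stranded libraries.

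All genes were compared with edgeR 4.0.16 in R 4.3.3 (quasi-likelihood F test, genotype only, 16 animals, TMM factors, filterByExpr with minimum count 10 and minimum total 15), and 10945 of 35682 genes were tested. P-values, two-sided, were adjusted across every tested gene by Benjamini-Hochberg and judged at 0.05. The SE of an edgeR log2 fold change was derived from its test, as the absolute log2 fold change divided by the square root of F. The labels call the animals biological replicates. Log2 CPM for correlations and marker scores used a prior count of 2. Ratios used a prior count of 0.5. Permutations and correlations ran in Python with scipy 1.17.1, and tests were checked on simulated data. Library totals were 5985335 to 14365864 counts, and the limit of 3 counts covers counting error only. Alternatives covered scaling, the low-count filter, DESeq2 1.42.0, voom of limma 3.58.1 with sample weights, an other-cell covariate (mean centred log2 CPM of fibroblast, endothelial, mural and leukocyte markers), a replicate block and each animal left out. The rule for named genes took all 10 members, other tested genes named as phosphodiesterases or their subunits, and pathway genes past the threshold. It also took up to 3 of the most abundant markers per list and the 3 genes most like each called member. No pathway gene passed with edgeR. The pathway genes in the text, and Nppa, fall outside the rule and were chosen after their values were seen. Of the markers, lists and Abcc9 are described. The members and lists were chosen with earlier results of these data known.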

Additional observations from a re-analysis of the deposited data

Results flagged for a closer look

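Dixon's test was applied to 14 genes (the 10 and the 4 others tested) and to the 4 ratios. It asked in each group of 8 whether the extreme animal stood far from the rest for the group's range (genes on log2(CPM + 0.1)). It picked out 4 of 36 groups, where about 1.8 would arise by chance.

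Pde3b was low in B3AR-Tg replicate 3, at 0.104 CPM (1 count) where the other 7 B3AR-Tg animals held 0.391 to 0.812, a gap of 0.586 of the range. That value lay below the limit of detection of its library, 3 counts or 0.313 CPM. Pde1c was high in WT replicate 4, at 280.1 CPM against 155 to 200.4 CPM, a gap of 0.564 of the range. The log2 ratio of Pde4b to Pde4d was high in WT replicate 7, at 1.82 against 0.47 to 1.10, a gap of 0.533 of the range. The log2 ratio of Pde4d to Pde4a was high in WT replicate 8, at 2.08 against 0.47 to 1.06, a gap of 0.634 of the range. In that animal Pde4a was the lowest of all 16, at 7.86 CPM.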

How the results depend on the processing

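Pde4b passed under all 25 alternatives and Pde3a under 23, the other-cell covariate (adjusted p = 0.133) and the replicate block (0.0914) being the exceptions. Pde4a passed under 12 of 25. The number of members called was 3, and it was 5 with DESeq2 (4 higher and Pde1c lower), 1 with the other-cell covariate, 1 with the replicate block and 2 to 4 over the fits that left out an animal. Over all genes the count was 537, and it was 840 with DESeq2, 29 with the other-cell covariate, 230 with the replicate block and 272 to 675 with an animal left out. Counts outside 1.5 times of 537 came without WT replicate 4 (272), B3AR-Tg replicate 5 (277) and B3AR-Tg replicate 8 (345). Scaling by library size alone gave 346 higher and 165 lower genes, against 222 and 315, and moved the median of all genes to 0.08. The pathway count, 0, was 3 with DESeq2, 1 with voom and 0 to 2 with an animal left out (Prkar1a, Adcy1, Adcy9, Npr2, Akap12 or Pde11a).

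Replicate numbers name different animals. Deviations of same-numbered animals from their group means correlated at −0.219 to 0.0935, and 0 of 8 WT animals correlated best with their own number, so the numbers were not taken as pairs. With the replicate block by sign flips over 256 patterns, the Pde4b to Pde4d ratio (0.57, exact permutation adjusted p = 0.167) and the Pde3a to Pde3b ratio (1.51, exact permutation adjusted p = 0.125) missed the threshold. With an animal left out, the Pde4b to Pde4d difference ranged from 0.50 to 0.72, Pde4b to Pde4a from 0.34 to 0.50, Pde4d to Pde4a from −0.27 to −0.02 and Pde3a to Pde3b from 1.38 to 1.67. Depth limits Pde3b and Pde5a. The cause of these shifts was not tested.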
